A study of Mus musculus with 24 samples.

Results

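The fragments described here are short 5′ pieces of glycine and aspartate transfer RNAs (tRNAs) in mouse liver. A tRNA fragment (tRF) is listed in the deposited table by a name that gives its length and a code for its sequence. Fragments shorter than 30 nt were taken where the code began with PNR8YP or P4R8YP (tRNA-GlyGCC or GlyCCC), QNR8VP (tRNA-GlyTCC), or was the one for the 5′ end of tRNA-AspGTC. This gave 20 of the 8456 tRFs. Of these, 16 had the AspGTC code with 7957 counts, 2 began with P4R8YP with 398 counts, and 2 had the GlyTCC code with 15 counts. The codes were assigned to tRNAs from the usual naming of such fragments; the sequences were not matched to tRNA genes here, nor the forms that differ at a base to gene copies. No row analysed here began with PNR8YP. All 20 together held 1.0% of the tRF counts, and the aspartate forms made up 95.1% of that.

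The 24 small RNA libraries came from livers of C57Bl/6J mice, 8 libraries in each of 3 groups. AM132 mice ate a high fat diet for 11 weeks, became obese, and received intravenous injections of 3.3 mg/kg of a 16-mer with locked nucleic acids against miR-132 on 3 consecutive days. AM608 mice had the same diet, dose and schedule, but a 15-mer against miR-608, which primates have and mice lack. Livers of both groups were taken 7 days after treatment. RCD mice were age-matched, lean, fed regular chow, and are not described as injected. AM132 against AM608 therefore compares the oligonucleotides within obese mice, whereas AM608 or AM132 against RCD joins diet, obesity and injection, which cannot be told apart here. The labels do not tie the numbered samples to separate animals, so a p-value here reflects the spread from sample to sample, part of which may be technical.

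Mature tRNAs carry amino acids to the ribosome, and their fragments are a separate class of small RNA. Angiogenin, a ribonuclease induced by stress, cuts in the anticodon loop and leaves long 5′ and 3′ pieces, whereas shorter 5′ fragments end nearer to the D arm. The methyltransferase DNMT2 modifies the anticodon loop of tRNA-AspGTC and tRNA-GlyGCC, which protects them from cleavage in flies and mice. tRNA-AspGTC also carries the modified base queuosine in its anticodon. In mice, 5′ fragments of glycine tRNA are abundant in sperm, where they respond to paternal diet.

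The sequences below were decoded from the deposited names, whose code spells the sequence, so that sequence and length identify each aspartate fragment in full. The aspartate fragments form a ladder that shares its 5′ end and grows at its 3′ end, and the forms on which the results turn are shown with every base past position 22 in capitals. The 30-nt form lies just outside the length limit and is shown for comparison.
AspGTC 22-nt form: tcctcgttagtatagtggtgag
AspGTC 23-nt form: tcctcgttagtatagtggtgagT
AspGTC 24-nt form: tcctcgttagtatagtggtgagTA
AspGTC 26-nt form: tcctcgttagtatagtggtgagTATC
AspGTC 29-nt form: tcctcgttagtatagtggtgagTATCCCC
AspGTC 30-nt form: tcctcgttagtatagtggtgagTATCCCCG

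A second aspartate form differs at base 20, counted from 1 at the 5′ end, by the change G20T. The 26-nt forms show the pair, with base 20 in capitals.
AspGTC 26-nt G form: tcctcgttagtatagtggtGagtatc
AspGTC 26-nt T form: tcctcgttagtatagtggtTagtatc

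The glycine fragments are shown for comparison with the ladder. The pair with code P4R8YP differs by 1 base at the 3′ end, in capitals, and the GlyTCC form has none in capitals.
tRF-28-P4R8YP9LOND5: gcatgggtggttcagtggtagaattctc
tRF-29-P4R8YP9LONHK: gcatgggtggttcagtggtagaattctcG
tRF-20-QNR8VP9L: gcgttggtggtatagtggta

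The 29-nt glycine and 29-nt aspartate sequences matched at 15 of 29 positions, and their longest shared stretch was AGTGGT, of 6 bases, starting at base 14 of each. The 20-nt GlyTCC sequence shared a longer stretch with the aspartate sequence, GTATAGTGGT, of 10 bases, and matched it at 14 of 20 positions. Many gene copies can give these fragments: the RefSeq annotation of GRCm38.p6 lists 16 tRNA-AspGTC genes on 6 chromosomes, 14 GlyGCC genes on 7, 6 GlyCCC genes on 4 and 7 GlyTCC genes on 3. One cluster on chromosome 1, from 171037029 to 171102827, holds 5 AspGTC, 5 GlyTCC and 4 GlyGCC genes. Copies with the same 5′ sequence cannot be told apart in these counts.

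Every RNA had an integrity number above 8.4. Depth limited what could be tested. A library held 25849 to 80578 tRF counts among the AM132 livers, 29889 to 46567 among the AM608 livers and 20580 to 39077 among the RCD livers. Levels are given in CPM, the depth-scaled unit of edgeR, here over the tested tRF counts with TMM factors, so that a single count was worth 23.8 to 45.1 CPM for AM132, 22.3 to 42.0 for AM608 and 27.6 to 52.4 for RCD. Reads carried no molecular identifiers that the sources describe, so the counting intervals and floors below cover counting error only. Of the 20 fragments, 6 passed edgeR's filter on low counts and held 94.2% of their counts. The other 14 had 489 counts between them, with totals of 1 to 119, and 4 of them had a single count. A library held between 8 and 15 of the 20.

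A pair of libraries stood apart. In AM132 library 8 the tested tRFs held 48.4% of all tRF counts, against 86.9% to 90.4% in the other libraries of the 3 groups, and this library had the lowest AM132 level of 4 of the 5 tested aspartate fragments. In RCD library 3 the 4 hepatocyte miRNAs (both arms of miR-122, miR-192-5p and miR-194-5p, all with counts) summed to 154143 CPM of miRNAs, the lowest of 24, against medians of 388188 for AM132, 270082 for AM608 and 316813 for RCD. Its 4 neural miRNAs summed to 1156 CPM, against an RCD median of 459.3, and its 3 muscle miRNAs to 331.3 CPM, against an RCD median of 35.99. Of the 4 leukocyte miRNAs 2 had counts, and these summed to 769.7 CPM in RCD library 3, against an RCD median of 127.5. The 3 erythroid miRNAs, all with counts, summed to 1519 CPM in AM132 library 8, against an AM132 median of 546.9, and to 1773 CPM in RCD library 3, against an RCD median of 735.6, each the highest of its group. The 3 pancreas miRNAs, all with counts, were low throughout, at 13.59 CPM in RCD library 3, against an RCD median of 3.268. In AM132 library 8 the hepatocyte miRNAs summed to 424196 CPM, the leukocyte ones to 102.7, the neural ones to 490.5, the muscle ones to 26.12 and the pancreas ones to 2.882. The 3 stellate or mesenchymal miRNAs, all with counts, summed to 1861 to 4611 CPM for AM132, 3183 to 6356 CPM for AM608 and 3604 to 4953 CPM for RCD, with AM132 library 8 at the lowest of these values. The hepatocyte marker miR-122-5p was the most abundant miRNA in all 3 groups. The part these differences had in the fragment results was not tested, and values that leaving out either library changed most are given below without it.

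The summed level of the aspartate fragments under 30 nt was lowest in AM132 and highest in RCD by median. It had a lowest, median and highest value of 2114, 9353 and 12184 CPM in AM132, of 6323, 10259 and 12015 CPM in AM608, and of 7262, 15226 and 30479 CPM in RCD. The 3 groups overlapped, and the lowest AM132 and RCD values were those of AM132 library 8 and RCD library 3. The log2 ratio of group means was -0.20 for AM132 over AM608 and -0.98 for AM132 over RCD, and without AM132 library 8 it was -0.05 and -0.83. For AM608 over RCD, which that library does not enter, it was -0.78. The highest RCD value was that of RCD library 8, and the ratios without RCD library 3 or RCD library 8 were not computed. Scaled instead to TMM-scaled miRNA totals, the same sum had medians of 41.59 RPM for AM132, 41.1 for AM608 and 54.1 for RCD. RPM here means reads relative to that scaled total, not to the raw miRNA reads. The scaled total lay below the raw one in every AM132 library, whereas AM608 and RCD libraries went both ways. The near equality of the AM132 and AM608 medians therefore depends on this scaling, and medians over raw miRNA totals were not computed. In a bulk library, fewer cells that hold a fragment and less of it in each cell cannot be told apart.

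Set against lean chow liver, obese liver given the anti-miR-132 oligonucleotide held less of the 2 shortest aspartate fragments, and these were the only tested members past the threshold. In edgeR's quasi-likelihood test with Benjamini-Hochberg adjustment over all 295 tested tRFs, 2 of the 6 tested members had an adjusted p under 0.05 in AM132 against RCD, both lower. The background for that comparison was 45 of 295 tRFs (15.3%), with 27 lower (9.15%) and 18 higher (6.1%). The median log2 fold change was -0.80 over the 6 members, or -0.57 over the tested ones without RCD library 8, and 0.03 over all 295. At an unadjusted p under 0.05 there were 3 members, and DESeq2 also called 3.

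The 22-nt form had a lowest, median and highest level of 172.1, 411.4 and 810.6 CPM in AM132, of 472.5, 737.7 and 1196 CPM in AM608, and of 130.5, 1453 and 2434 CPM in RCD. All 8 AM132 libraries and all 8 AM608 libraries lay below the RCD median, but every pair of groups overlapped, and the lowest of all 24 was RCD library 3. In AM132 against RCD its log2 fold change was -1.58 (95% interval -2.34 to -0.83, edgeR adjusted p = 0.00521). Without RCD library 3 this became -1.76 (adjusted p = 2.0e-04), and without AM132 library 8 it became -1.42 (adjusted p = 0.00839). The raw counts behind it numbered 7 to 34 a library for AM132, 15 to 46 for AM608 and 3 to 61 for RCD.

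The 23-nt form was the most abundant member, with 5809 counts, or 69.4% of those of all 20, and it ranked 19th by mean level among the 295 tested tRFs. It had a lowest, median and highest level of 1327, 5863 and 8958 CPM in AM132, of 4920, 7594 and 9388 CPM in AM608, and of 4261, 11461 and 23697 CPM in RCD. Again no library of AM132 or AM608 reached the RCD median, 7 of 8 AM132 libraries lay below the AM608 median, and the groups overlapped. Means were 5696 ± 2320 CPM for AM132, 7350 ± 1521 for AM608 and 12714 ± 6021 for RCD (SD, n = 8 each). In AM132 against RCD the log2 fold change was -1.16 (95% interval -1.77 to -0.55, edgeR adjusted p = 0.00866). It was -1.29 without RCD library 3 (adjusted p = 0.00124) and -0.99 without AM132 library 8 (adjusted p = 0.00788).

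The longer tested members did not pass the threshold in AM132 against RCD. The 24-nt form had a lowest, median and highest level of 98.04, 243.7 and 496.4 CPM in AM132, of 53.02, 230.2 and 373 CPM in AM608, and of 86.97, 498.2 and 1596 CPM in RCD. Its AM132 and AM608 values also lay below the RCD median throughout, over only 2 to 40 counts per library. In AM132 against RCD its log2 fold change of -1.20 just missed the threshold (edgeR adjusted p = 0.0503), and it passed without RCD library 3 (-1.36, adjusted p = 0.0115) but not without AM132 library 8 (-1.10, adjusted p = 0.0826).

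The 26-nt form had a lowest, median and highest level of 196.6, 911.1 and 2031 CPM in AM132, of 311.7, 569.1 and 1631 CPM in AM608, and of 524.1, 1250 and 1955 CPM in RCD. Here the highest library of all was an AM132 one, and AM132 exceeded AM608 by median. Of the AM608 libraries 4 lay below all 8 RCD ones, whereas for AM132 it was 2. In AM132 against RCD the log2 fold change was -0.43 (95% interval -1.22 to 0.36, edgeR adjusted p = 0.465). It was -0.26 without AM132 library 8, -0.53 without RCD library 3 and -0.66 without AM132 library 2.

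For the 29-nt aspartate form the lowest, median and highest levels were 122.9, 446.7 and 1128 CPM in AM132, 42.01, 152.9 and 1034 CPM in AM608, and 104, 367 and 1305 CPM in RCD. The groups overlapped, and of 8 AM132 libraries 4 lay below the RCD median and 1 below the AM608 median. Of 8 AM608 libraries 6 lay below the RCD median and 3 below all 8 RCD libraries. In AM132 against RCD its log2 fold change was 0.20 (SE 0.58, edgeR adjusted p = 0.851), and it was 0.67 without RCD library 3 and 0.37 without AM132 library 8. RCD library 3 held the highest level of all 24, in contrast to its low 22-, 23- and 24-nt levels.

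**Figure D1:**
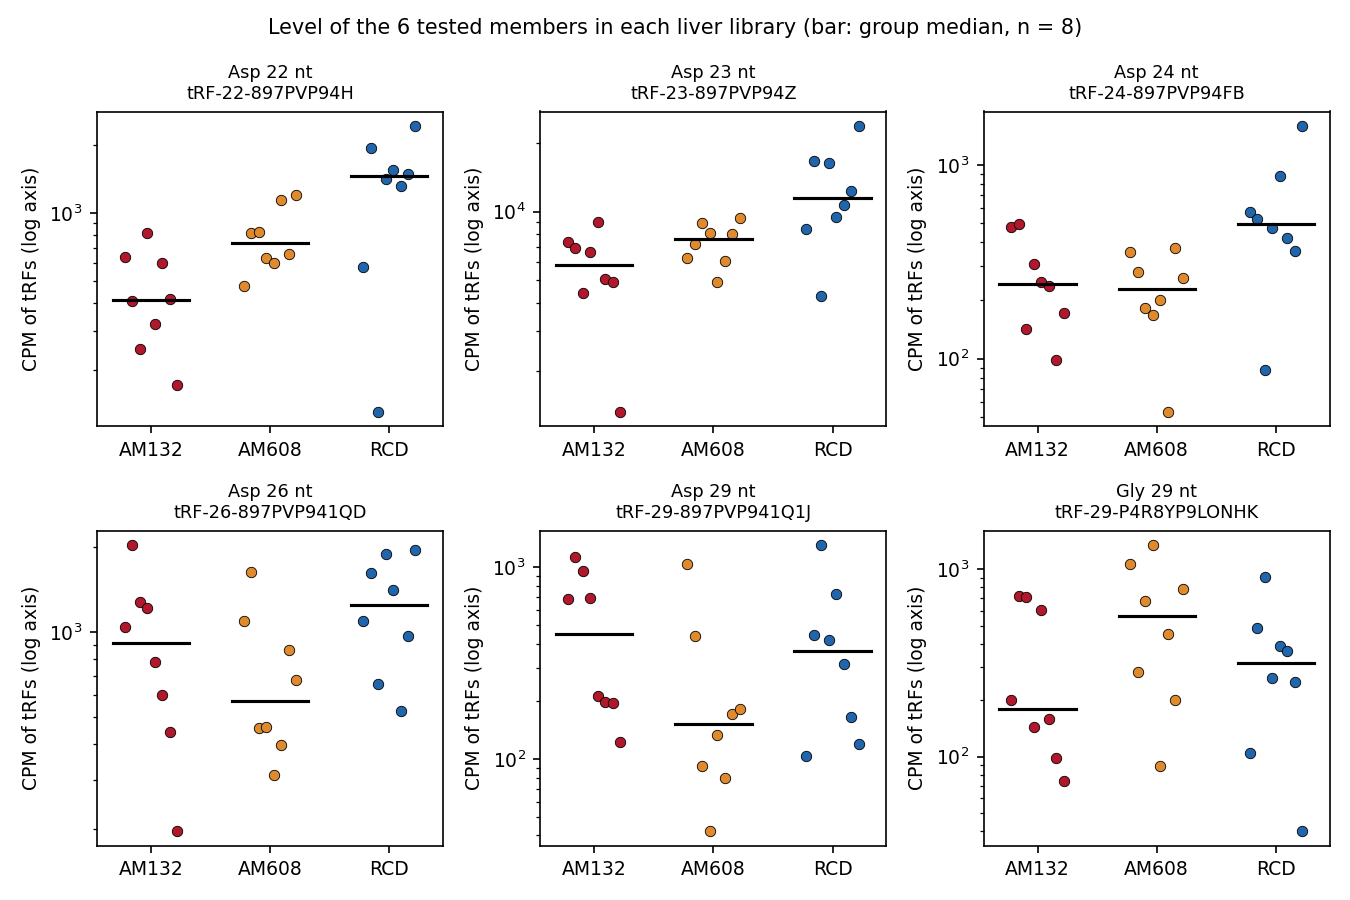
Level of each of the 6 tested glycine and aspartate fragments (CPM of tested tRFs, log axis) in every liver library, with AM132 left, AM608 in the middle and RCD right; points are libraries (n = 8 per group) and bars are group medians. For the 22-, 23- and 24-nt aspartate forms all AM132 and AM608 points lie below the RCD bar. The groups overlap in all 6 panels.

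Between the oligonucleotides, AM132 against AM608, no tested member passed: 0 of 6 by edgeR, 0 by DESeq2, and 1 at an unadjusted p under 0.05. The background was 15 of 295 tRFs (5.08%), with 12 higher (4.07%) and 3 lower (1.02%), and the median log2 fold change was -0.10 over the 6 members and -0.01 over all 295. The member with an unadjusted p under 0.05 was the 22-nt form, with a log2 fold change of -0.81 (95% interval -1.57 to -0.06, edgeR adjusted p = 0.213); 7 of 8 AM132 libraries lay below the AM608 median and 5 below all 8 AM608 libraries. For the 23-nt form the log2 fold change was -0.37 (95% interval -0.97 to 0.23, edgeR adjusted p = 0.486). The longer forms had estimates above 0, of 0.17 at 24 nt (95% interval -0.72 to 1.07), 0.35 at 26 nt (-0.45 to 1.14) and 0.90 at 29 nt (-0.30 to 2.11), with edgeR adjusted p of 0.845, 0.641 and 0.425 in that order. Single libraries moved these: the 26-nt value was 0.066 without AM132 library 2, 0.22 without AM608 library 5 and 0.60 without AM608 library 2, and the 29-nt value was 1.61 without AM608 library 1. Intervals of this width do not show that the oligonucleotides act alike on these fragments.

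For obese liver given the anti-miR-608 oligonucleotide against lean liver, AM608 against RCD, again 0 of 6 tested members passed in edgeR, against 13 of 295 tRFs (4.41%), of which 8 were lower (2.71%) and 5 higher (1.69%). At an unadjusted p under 0.05 there were 3 members, the 22-, 23- and 24-nt aspartate forms, and DESeq2 called 1, the 24-nt form. The median log2 fold change was -0.78 over the members, or -0.60 without RCD library 8, and -0.03 over all tRFs. This comparison shares its RCD libraries with AM132 against RCD, so the values of both lean on the same 8 libraries. The 24-nt form had the lowest estimate, -1.37 (95% interval -2.23 to -0.52, edgeR adjusted p = 0.0537). The 23-nt form had -0.79 (-1.39 to -0.19, edgeR adjusted p = 0.0953) and the 22-nt form -0.77 (-1.50 to -0.05, edgeR adjusted p = 0.167). At 26 nt the value was -0.78 (-1.57 to 0.01, edgeR adjusted p = 0.196) and at 29 nt -0.71 (-1.95 to 0.54, edgeR adjusted p = 0.482). The 29-nt value was -0.22 without RCD library 3 and -1.42 without AM608 library 1. The count depended on single libraries: it was 3 without RCD library 3, namely the 22-nt (adjusted p = 0.0438), 23-nt (0.0388) and 24-nt (0.0129) forms, and 2 without AM132 library 8, the 23- and 24-nt forms. Each of these is lower in AM608 than in RCD.

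**Figure D2:**
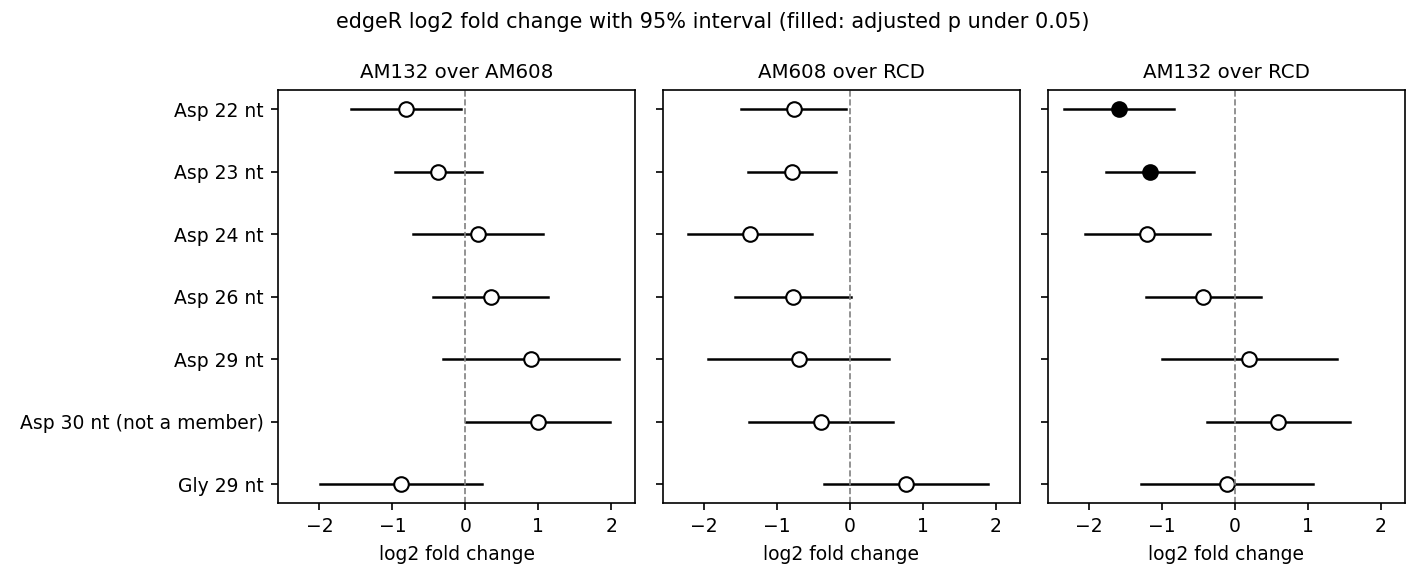
edgeR log2 fold change (x axis) with its 95% interval for the 6 tested members and the 30-nt aspartate form, in AM132 over AM608, AM608 over RCD and AM132 over RCD; filled points have an adjusted p under 0.05. The 22- and 23-nt forms in AM132 over RCD, at -1.58 and -1.16, are the filled points, and in AM132 over AM608 and AM132 over RCD the aspartate estimates are lowest at 22 nt and highest at 30 nt.

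The aspartate fragments were unevenly spread over length. Over all 24 libraries, the ladder with G at base 20 had 55.1% of its counts at 23 nt, 26.7% at 30 nt, 6.23% at 26 nt, 5.68% at 22 nt, 2.64% at 29 nt, 2.31% at 24 nt, 1.1% at 27 nt and 0.209% at 28 nt. A single count was listed at 25 nt. The ladder thus had a high step at 23 nt and another at 30 nt, with few counts between them. No row of these codes analysed here was longer than 30 nt. The shares and mean lengths therefore cover 22 to 30 nt only, and longer fragments, if present, are left out.

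The balance between these steps differed from library to library. The 22- to 24-nt forms held a lowest, median and highest share of 28.79%, 50.65% and 74.86% in AM132, of 43.09%, 76.18% and 79.46% in AM608, and of 26.34%, 76.34% and 87.64% in RCD. The lowest share of all was in RCD library 3, at 26.3% (95% Wilson interval 22.2% to 30.9%), where the 30-nt form held 60.4% (55.4% to 65.1%). The 30-nt form, which is not among the 20, had a lowest, median and highest level of 1401, 4232 and 15478 CPM in AM132, of 1617, 1850 and 6762 CPM in AM608, and of 1596, 2595 and 10262 CPM in RCD. By median it was thus highest in AM132, where the 23-nt form was lowest, though the groups overlapped. The mean length of the ladder's counts had medians of 26.12 nt for AM132, 24.34 nt for AM608 and 24.28 nt for RCD.

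**Figure D3:**
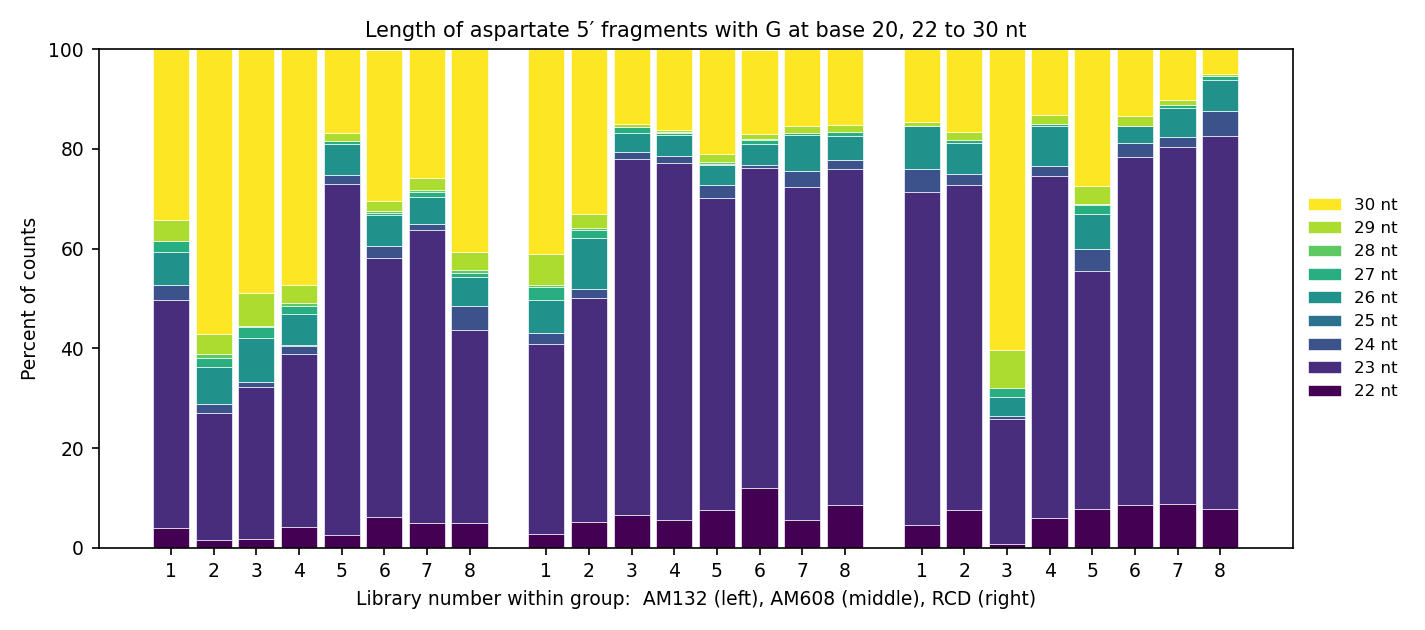
Percent of the counts of the aspartate ladder (G at base 20, 22 to 30 nt) at each length, stacked for every library; AM132 libraries 1 to 8 are left, AM608 in the middle and RCD right. The 22- to 24-nt forms, at the bottom, have median shares of 50.65% in AM132, 76.18% in AM608 and 76.34% in RCD, and RCD library 3 has the lowest share, 26.3%.

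The ratio of 30-nt to 23-nt counts within a library does not depend on how libraries are scaled, and it was examined after the levels had been seen. On the log2 scale it averaged -0.26 ± 1.06 in AM132, -1.56 ± 0.89 in AM608 and -1.89 ± 1.53 in RCD (SD, n = 8 each). The difference was 1.30 for AM132 minus AM608 (exact two-sided permutation p = 0.0211) and 1.63 for AM132 minus RCD (exact p = 0.0298). For AM608 minus RCD it was 0.33 (exact p = 0.619), and 0.78 without RCD library 3 (exact p = 0.122). Neither of the first 2 passed after adjustment over the 9 comparisons made with 3 such ratios (adjusted p = 0.134 for both, exact permutation tests). Without RCD library 3 the AM132 minus RCD difference was 2.08 and passed (exact p = 0.00280, adjusted p = 0.0252), the 1 of 16 single libraries left out for which it did. It was 1.35 without RCD library 8 (exact p = 0.0584, adjusted p = 0.175) and 1.43 without AM132 library 2 (exact p = 0.0566, adjusted p = 0.255). Without AM132 library 8 the difference was 1.25 for AM132 minus AM608 and 1.58 for AM132 minus RCD (adjusted p = 0.199 for both, exact permutation tests). The 26-nt to 23-nt ratio differed by 0.79 for AM132 minus AM608 and by 0.61 for AM132 minus RCD (adjusted p = 0.150 and 0.151, exact permutation tests), and the 22-nt to 23-nt ratio by -0.37 and -0.20 (adjusted p = 0.374 and 0.619, exact permutation tests).

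Some lengths varied together across the 24 libraries more closely than others. As a description, with libraries that share groups and scaling, Pearson's r of log2 CPM was 0.817 between the 22- and 23-nt forms and 0.934 between the 29-nt aspartate form and the 30-nt form. Between the 23-nt and 30-nt forms it was -0.0891. The 26-nt form had r of 0.685 with the 24-nt form, 0.627 with the 23-nt form, 0.548 with the 29-nt aspartate form and 0.561 with the 30-nt form. The 24-nt form had r of 0.652 with the 23-nt form and 0.588 with the 22-nt form.

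**Figure D4:**
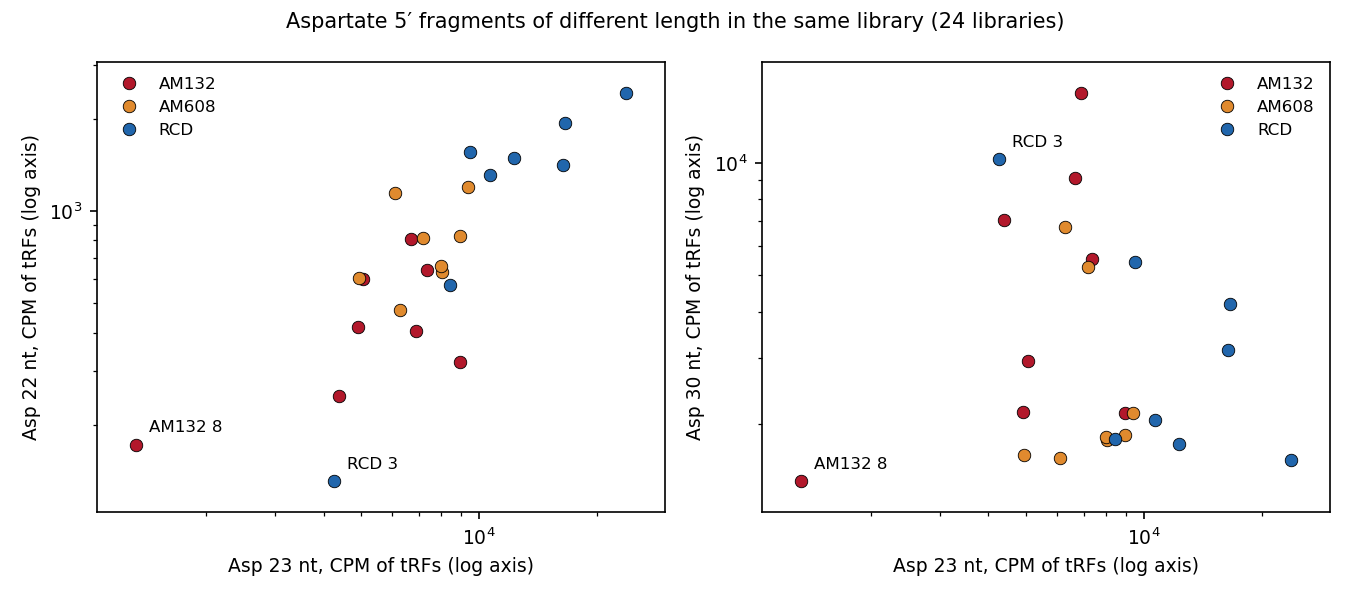
Level of the 22-nt (left) and 30-nt (right) aspartate fragments against that of the 23-nt fragment in the same library (CPM of tested tRFs, both axes log), one point per library, AM132, AM608 and RCD by colour. The 22-nt level follows the 23-nt level (r = 0.817) and the 30-nt level does not (r = -0.0891); AM132 library 8 and RCD library 3 are marked.

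The form with T at base 20 was present at 7 lengths from 24 to 30 nt. Over these lengths it had 656 counts beside 4129 counts of the G form, a share of 13.7%. By length the share was 13.2% at 24 nt, 15.4% at 26 nt, 19.4% at 27 nt, 12.6% at 29 nt and 13.2% at 30 nt, each from 28 or more T counts. Its share per library had a median of 14.45% in AM132 (8.14% to 16.53%), of 11.77% in AM608 (9.483% to 22.78%) and of 11.57% in RCD (9.211% to 17.38%), and the groups overlapped. At 22 and 23 nt, where the G form had 6407 counts, there was no row analysed here with T at base 20, so no share is given for those lengths. At 30 nt the T form had a lowest, median and highest level of 98.32, 693.4 and 2482 CPM in AM132, of 133.6, 276 and 797.3 CPM in AM608, and of 104.8, 365.7 and 2174 CPM in RCD. These levels followed those of the G form of the same length, with r of 0.942 over the 24 libraries. The change A24G, counted from the same end, was seen in 3 rows of the aspartate code, with 3, 1 and 5 counts at 24, 26 and 30 nt.

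Among the glycine fragments, tRF-29-P4R8YP9LONHK was the single one tested, with 297 counts. Its lowest, median and highest levels were 73.74, 179.5 and 722 CPM in AM132, 89.05, 561.4 and 1344 CPM in AM608, and 39.89, 314.5 and 913.2 CPM in RCD. By median it was thus highest in AM608, unlike the 5 tested aspartate forms, and the groups overlapped widely. Its log2 fold change was -0.88 in AM132 against AM608 (95% interval -1.99 to 0.23, edgeR adjusted p = 0.389) and 0.77 in AM608 against RCD (-0.36 to 1.89, edgeR adjusted p = 0.398), the second being 1.15 without RCD library 3. In AM132 against RCD it was -0.11 (-1.29 to 1.07, edgeR adjusted p = 0.935), a value whose sign changed when single libraries were left out.

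The 28-nt glycine form, tRF-28-P4R8YP9LOND5, one base shorter, was present in all 24 libraries with 1 to 6 counts for AM132, 2 to 10 for AM608 and 1 to 6 for RCD, too few to test. Its totals over 8 libraries were 26 counts for AM132, 58 for AM608 and 17 for RCD. Summed, both P4R8YP forms had a lowest, median and highest level of 122.6, 279.3 and 992.8 CPM in AM132, of 133.6, 846.7 and 1638 CPM in AM608, and of 119.7, 366.9 and 1174 CPM in RCD. The groups overlapped. The GlyTCC forms were close to the limit of detection: tRF-20-QNR8VP9L had 14 counts in 10 libraries and the 26-nt form 1 count. Their sum was 0 in 5 AM132, 4 AM608 and 4 RCD libraries. A count of 0 allows up to 3 counts per library. Over all libraries of a group, also those with a count, this floor is 71.5 to 135 CPM for AM132, 66.8 to 126 CPM for AM608 and 82.8 to 157 CPM for RCD.

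The remaining untested aspartate forms were rare, with the T form at 26 nt (119 counts, all 24 libraries) and the G form at 27 nt (116 counts, 22 libraries) at the top. The 27-nt G form had a lowest, median and highest level of 24.58, 204 and 451.3 CPM in AM132, of 22.26, 91.78 and 413.4 CPM in AM608, and of 0, 115.7 and 339.7 CPM in RCD. The 28-nt G form had 13 counts in 6 AM132 libraries, 8 counts in 5 AM608 libraries and 1 count in 1 RCD library.

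Other 5′ fragments give the setting. At 30 nt the same codes had 2 tested forms, the G and T aspartate forms, and neither passed in any comparison; both had an unadjusted p under 0.05 in AM132 against AM608, with log2 fold changes of 0.99 (edgeR adjusted p = 0.235) and 1.32 (edgeR adjusted p = 0.208). Under 30 nt, glutamate fragments of code 86J8WP had 11 tested forms, of which 7 were past edgeR's adjusted threshold in AM132 against RCD, all lower. None of the 11 passed edgeR's adjusted threshold in AM132 against AM608 or in AM608 against RCD, where 6 and 2 had an unadjusted p under 0.05. Lysine fragments of code PS5P4P had 2 of 6 past that threshold and higher in AM132 against AM608, and 1 of 6 past it and lower in AM608 against RCD. Those of code PSQP4P had 1 of 6 past it and lower in AM132 against RCD. Both tested valine fragments missed the threshold in every comparison, and no histidine fragment was tested. Over the glutamate, lysine, valine and histidine lists together, 8 of 25 tested forms were past the threshold in AM132 against RCD, all lower, against 9.15% of all tRFs called lower. The median over the 25 was -0.80 on the log2 scale, the same to 2 decimals as that of the 6 glycine and aspartate members. The lower level of short aspartate fragments in that comparison was therefore not shown to be particular to aspartate.

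The tRFs outside the set whose levels were most like those of the 23-nt aspartate form, among 289 tested ones, were the glutamate fragments tRF-26-86J8WPMN1EE (Pearson's r = 0.937, Spearman's rho = 0.884) and tRF-27-86J8WPMN1E5 (r = 0.89, rho = 0.853), and tRF-16-RPM830D (r = 0.921, rho = 0.923). Likeness was measured on log2 CPM over the 24 libraries, which share groups and scaling, and no p is given. For the 29-nt glycine form the closest were tRF-30-KY7343RX6NMH (r = 0.684, rho = 0.673), tRF-30-PSQP4PW3FJI0 (r = 0.644, rho = 0.697) and tRF-29-PSQP4PW3FJFL (rho = 0.661), so no tRF followed it as closely. This glycine form had 297 counts in all, against 5809 for the 23-nt aspartate form. The part that counting error had in its lower correlations was not tested.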

How the data were processed

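Small RNA was sequenced in 24 libraries of mouse liver (8 each of AM132, AM608 and RCD) with the NEBNext small RNA kit on a NextSeq 500, per the labels' protocols. The authors deposited raw counts, not normalized, in a tRF table and a miRNA table; no aligner, fragment caller, trimming or genome build is stated for them in the sources used here, and FastQC is the only tool that the submitters' processing notes name. Fragment sequences were decoded from the deposited names (base-32 code): all 8456 encoded back to their own name. How reads that match several tRNA genes were assigned is not stated, and base modifications that stop reverse transcription can change which 5′ fragments are counted.

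Counts were tested with edgeR 4.0.16 (R 4.3.3): filterByExpr by group (295 tRFs kept), TMM factors, a robust quasi-likelihood fit over all 24 libraries with group only, and Benjamini-Hochberg adjustment over the 295, with an adjusted p of 0.05 as the threshold. The procedure was also run on simulated counts, and its power and error rate there are not given here. DESeq2 1.42.0 was an alternative, as were RLE factors, library totals, TMM-scaled miRNA totals as library sizes, no filter, a mean count of at least 10, only the 2 groups compared, a replicate block and leaving out libraries. Ratios within libraries took 0.5 as the prior count and exact permutation tests (12870 arrangements of 8 against 8, scipy 1.17.1); log2 CPM took a prior count of 2. Members named in full are, per code, the 3 tested with the highest mean CPM and any called member; the 24- and 29-nt aspartate forms, the untested forms and the ratios with their leave-one-out tests were added after the values had been seen. Members, lists and tests were chosen with earlier results of these data known. No libraries of a group were alike enough to be merged: chi-square divided by its degrees of freedom was at least 2.077 over 84 pairs.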

Additional observations from a re-analysis of the deposited data

Results flagged for a closer look

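Within each group of 8, the lowest and highest library was set against its nearest neighbour by Dixon's criterion. This was done for 36 groups of values, and 3 stood out, where chance gives about 1 in 20. The 36 were not independent. The 23-nt fragment is part of the aspartate sum, so the first and second values below share most of their counts. The 23-nt aspartate fragment was at a log2 CPM of 10.4 in AM132 library 8, whereas the nearest AM132 library was at 12.1 and the median of the other 7 at 12.7. The sum of the aspartate fragments under 30 nt was at 11.0 on the same scale in AM132 library 8, against 12.6 in the nearest AM132 library and a median of 13.4. This is the library whose tested tRFs held 48.4% of its tRF counts. The share of the aspartate ladder at 22 to 24 nt was 26.3% in RCD library 3, against 59.9% in the nearest RCD library and a median of 76.7% in the others. This is the library with the lowest summed level of hepatocyte miRNAs. The part that either property had in these values was not tested.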

How the results depend on the processing

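The 22- and 23-nt aspartate fragments were lower and past the threshold in AM132 against RCD under all alternatives run, including each of 24 single libraries left out (log2 fold changes of -1.76 to -1.41 and of -1.29 to -0.98; adjusted p up to 0.0168 and 0.0260, edgeR). With TMM-scaled miRNA totals as library sizes, they were at -1.10 and -0.72 (edgeR adjusted p = 0.0282 and 0.0466). That scaling moved the median of all tRFs to 0.65 in AM132 over RCD, 0.25 in AM132 over AM608 and 0.32 in AM608 over RCD. With library totals the median of all tRFs was 0.11 in AM132 against RCD. The median over the 6 members was 0.10, -0.49 and -0.32 with miRNA library sizes, for AM132 over AM608, AM608 over RCD and AM132 over RCD, in place of -0.10, -0.78 and -0.80. Among single libraries left out, RCD library 8 moved the members' median most in both comparisons with RCD, to -0.57 in AM132 over RCD and -0.60 in AM608 over RCD. The number of members called in AM132 against RCD was 2 to 3, with 3 under RLE factors, DESeq2 and the mean count filter, and in AM132 against AM608 it was 0 throughout. In AM608 against RCD it was 1 with RLE factors, 1 with DESeq2, 2 with only the 2 groups compared, 3 without AM132 library 8 and RCD library 3, and 0 to 3 with single libraries left out. Leaving out any of AM132 libraries 1, 7 and 8, AM608 libraries 1 and 7, or RCD libraries 3 and 7 brought the 24-nt form past the threshold there; in AM132 against RCD, leaving out AM132 library 1 or 2, AM608 library 1 or 6, or RCD library 3 or 7 did. The cause was not tested.

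Some estimates short of the threshold changed sign. The glycine 29-nt form in AM132 against RCD became 0.43 with miRNA library sizes, 0.0030 without a filter, 0.042, 0.067 and 0.039 without AM132 libraries 4, 7 and 8, 0.27 without RCD library 3, and 0.43 without AM132 library 8 and RCD library 3, with a range of -0.36 to 0.43 over libraries left out. The 26-nt form in AM132 against RCD became 0.061 with miRNA library sizes, and the 29-nt aspartate form -0.032 without AM132 library 2 (range -0.032 to 0.85). The 24-nt form in AM132 against AM608 became -0.021 without AM132 library 2 and -0.0059 without AM608 library 6 (range -0.021 to 0.34). The 22-nt to 23-nt ratio in AM608 minus RCD became -0.037 without RCD library 3 (range -0.037 to 0.28).

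The count over all tRFs also depended on the setting. In the order AM132 over AM608, AM608 over RCD, AM132 over RCD the calls were 15, 13 and 45, but 208, 5 and 191 with no filter, 21, 44 and 145 with miRNA library sizes, 48, 14 and 78 with the mean count filter, and 17, 30 and 57 with DESeq2. With only the 2 groups compared they were 13, 31 and 35, with library totals 10, 19 and 32, and without AM132 library 8 and RCD library 3 they were 14, 44 and 54.

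Whether same-numbered libraries are paired was not settled. Their correlations ran from -0.15 to 0.49, -0.12 to 0.34 and -0.30 to 0.48 in the 3 comparisons. Of 8 libraries 2, 1 and 3 correlated best with their own number, and a level expected by chance was not computed. With the replicate number as a block, 0, 0 and 2 members and 16, 19 and 33 tRFs were called, and the 22- and 23-nt forms in AM132 against RCD were at -1.49 and -1.09 (adjusted p = 0.0148 and 0.0353).

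Depth limits the rarer forms: 14 of the 20 could not be tested, and the 24-nt form had 2 to 40 counts per library.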
